A study of Mus musculus with 112 samples.

Results

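Coding exon regions away from promoters were short runs of CpG cytosines that lay inside annotated coding sequence of protein-coding genes and more than 2 kb from any annotated transcript start. They were chosen by position alone: autosomal CpG positions of the 13 deposited tables were placed on the mm10 build, those in coding sequence were kept, and neighbours at most 100 bp apart were joined into regions of 3 or more cytosines. This gave 20585 regions with 142482 cytosines in 8818 genes, of 438479 regions of 3 or more cytosines in the whole series. A further 17868 runs held 1 or 2 coding cytosines and were not regions. The median region had 5 cytosines, spanned 62 bp and lay 7482 bp from the nearest transcript start. Ttn, the gene of the giant muscle protein titin, held the most regions (110), and 4017 genes held 1 region.

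DNA methylation (DNAme) of single cytosines came from RRBS, which cuts DNA with restriction enzymes, converts unmethylated cytosines with bisulfite and sequences the CpG-rich fragments, in 67 F0 sperm, 13 F1 sperm and 32 F1 brain libraries. The F0 males were C57BL/6J wild type and unexposed (control WT, n = 10), breathed cigarette smoke (smoked WT, n = 9), or breathed it and then rested for 3 spans of 28 to 171 days (recovery 1, 2 and 3, with n = 9, 10 and 10), or were Nrf2-/- on the C57BL/6J background, either unexposed (control Nrf2-/-, n = 10) or smoked (smoked Nrf2-/-, n = 9). Nrf2-/- mice carry a targeted Nfe2l2, the gene of NRF2, which drives antioxidant gene transcription. F1 groups are named for the sire: sperm was taken from 6 control WT and 7 smoked WT sons, and brain was prefrontal cortex of 8 sons for each of the 4 kinds of sire, WT or Nrf2-/- and control or smoked. All sons had a CAST/EiJ mother, and sons of Nrf2-/- sires carried a single targeted allele beside a maternal intact one. The brain groups therefore do not model loss of NRF2, and the sire's genotype cannot be told apart from the son's own. The sperm had been treated to lyse somatic cells. Prefrontal cortex is a mixture of cell types, whose shares were not measured.

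Most CpG sites of the mammalian genome are methylated, and the main exception is the CpG island, a CpG-dense stretch that usually sits at a promoter and stays free of methylation. Bodies of genes, coding exons included, are typically methylated in somatic cells. Sperm receives its pattern in the male germ line, nearly all of which is erased after fertilization and laid down again in the embryo, so sperm and a somatic tissue can carry different levels in the same exon.

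The sequences of 9 regions are given because the comparisons turn on them. The first pair is printed with a single capital, the cytosine whose reading of 0 in libraries of Nrf2-/- males or of their sons carried the difference. In the other sequences every scored cytosine is a capital, with a capital G standing for a scored cytosine of the reverse strand. Osbpl3, Ssh1, Gm11639 and Fign differed between Nrf2-/- and control WT F0 sperm, Dnah6 differed in recovery 3, and Rbm47 and Dpysl5 were among the regions furthest apart between brain and sperm. Each is the forward strand of GRCm38 with 5 bases of flank.
Pde11a, chr2:76158296-76158359: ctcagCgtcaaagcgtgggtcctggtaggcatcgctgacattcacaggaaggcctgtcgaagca
Itprid2, chr2:79644746-79644807: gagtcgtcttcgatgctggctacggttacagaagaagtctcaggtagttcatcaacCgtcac
Osbpl3, chr6:50323076-50323168: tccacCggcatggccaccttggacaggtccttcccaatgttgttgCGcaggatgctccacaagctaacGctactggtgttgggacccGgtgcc
Ssh1, chr5:113942512-113942662: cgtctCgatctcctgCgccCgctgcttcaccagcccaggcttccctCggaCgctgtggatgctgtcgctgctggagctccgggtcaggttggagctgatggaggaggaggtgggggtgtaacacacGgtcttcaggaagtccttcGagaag
Gm11639, chr11:105117112-105117392: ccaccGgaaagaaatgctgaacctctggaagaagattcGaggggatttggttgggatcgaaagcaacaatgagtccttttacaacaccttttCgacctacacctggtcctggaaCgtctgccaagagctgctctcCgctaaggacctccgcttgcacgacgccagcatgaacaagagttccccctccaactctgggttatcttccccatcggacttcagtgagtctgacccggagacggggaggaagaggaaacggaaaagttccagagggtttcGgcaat
Fign, chr2:63979843-63979881: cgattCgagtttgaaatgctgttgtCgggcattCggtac
Dnah6, chr6:73060178-73060288: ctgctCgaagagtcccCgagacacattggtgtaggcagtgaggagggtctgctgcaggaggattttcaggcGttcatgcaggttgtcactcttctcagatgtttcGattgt
Rbm47, chr5:66027127-66027196: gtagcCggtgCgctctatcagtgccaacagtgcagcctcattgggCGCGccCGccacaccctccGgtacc
Dpysl5, chr5:30796242-30796312: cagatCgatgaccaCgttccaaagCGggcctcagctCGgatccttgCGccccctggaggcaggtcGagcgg

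The depth behind a methylation percent is unknown, because the tables gave no read counts. Libraries held a value at 30089 to 68102 coding cytosines of these regions' runs in F0 sperm, 15970 to 61010 in F1 sperm and 42836 to 70617 in brain. A cytosine was scored when no group of that tissue and generation had fewer than 4 libraries with a reading, and a region was tested with 3 or more scored cytosines. That left 4881 regions (3450 genes) in F0 sperm, 3670 in F1 sperm and 7272 (4659 genes) in brain, 2761 of them shared by all 3 and 12572 in none. Tissue labels were checked at promoters of imprinted genes that are known to be methylated on the maternal copy only. They averaged 5.25% to 5.89% over the F0 sperm groups, 12.3% and 10.3% in the F1 sperm groups (over fewer cytosines) and 26.6% to 32.6% over the brain groups.

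Nfe2l2 itself held a pair of regions and checked the genotype labels. The region in coding exon 5 of 5 (chr2:75676209-75676251) had a value in 48 of 48 WT F0 sperm libraries and in 0 of 19 Nrf2-/- libraries. The region in coding exon 2 (chr2:75679312-75679375) had a value in 48 of 48 and 19 of 19. In brain the exon 5 region had a value in 16 of 16 libraries from WT sires and in 16 of 16 from Nrf2-/- sires. In F1 sperm it had a value in 6 of 13. The distal exon was therefore without a reading in every Nrf2-/- sperm library and read in every brain library.

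Coding exon regions of control WT F0 sperm were either nearly full or nearly empty. The mean over regions was 61.7% ± 1.44 (SD between libraries, n = 10), against 47.9% ± 1.56 for all other regions. Of the 4881 regions, 58.5% were above 80%, 32.4% were below 20% and 9.10% lay between. In control WT brain the mean was 75.1% ± 1.06 (n = 8), against 52.8% for other regions, and the classes were 63.1% above 80%, 7.89% below 20% and 29.1% between. Levels of 40% to 60% were held by 2.13% of regions in control WT F0 sperm, 5.31% in control WT F1 sperm and 7.59% in brain. Control WT F1 sperm had 51.6% of regions above 80%, 26.7% below 20% and 21.7% between. These shares are over the regions tested in each tissue and generation, which are not the same set. F0 sperm and brain also differ in generation and in the CAST/EiJ mother of the sons, which cannot be told apart from tissue here.

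**Figure D1:**
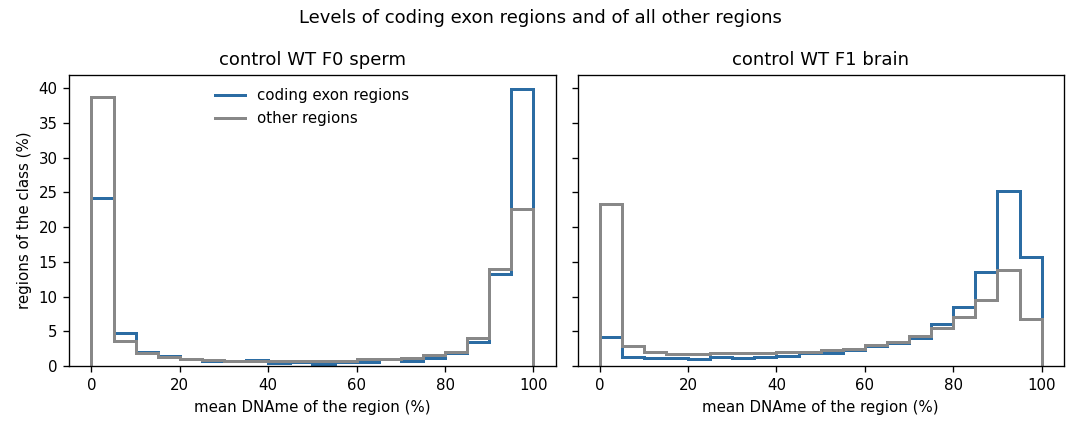
Share of regions (y axis, percent of the class) in each 5-point bin of mean DNAme (x axis, percent) for coding exon regions (blue) and all other regions (grey), in control WT F0 sperm (left, n = 10 libraries) and control WT F1 brain (right, n = 8). In sperm 32.4% of coding exon regions sat below 20% and in brain 7.89% did.

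The level of a coding exon followed its CpG density. In control WT F0 sperm, regions whose surrounding 500 bp had a CpG observed to expected ratio of 0 to 0.2 averaged 89.8%, and the mean fell over successive steps of 0.2 through 80.8%, 60.6% and 34.9% to 11.2% above 0.8. Brain held 79.5%, 79.5%, 78.2%, 63.9% and 29.6% over the same classes, so that the steep part of the decline began at a higher density. Only 9.43% of all 20585 coding exon regions, tested or not, had a ratio over 0.6. Such regions were more common among those tested. In sperm 788 of 4881 had a ratio of 0.6 to 0.8 and 242 a ratio over 0.8, and in brain 878 and 276 of 7272. These are descriptions across regions, which are not independent of each other, and no test was made.

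Place in the gene and exon length went with the level as well. Places were counted along the annotated transcript chosen for each region. Inner coding exons averaged 71.04% in sperm, and last exons averaged 44.9%, first exons 50.2% and exons that were the only coding exon of that transcript 34.8%. Regions in exons of up to 150 bp averaged 78.0% and those in exons of 300 to 1000 bp 44.6%. Brain differed less between these places, with 78.5% in inner, 68.2% in last, 70.5% in first and 66.1% in single exons. The 1688 regions at 2 to 5 kb from a transcript start, the ones nearest to the limit used to define them, averaged 55.5% in sperm, against 64.3% at 5 to 20 kb. The parts of CpG density, exon length and place were not tested apart.

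The position of the cytosine in its codon was another division that the choice of regions did not use. On the coding strand, cytosines at codon position 1 averaged 50.5% in control WT F0 sperm, those at position 2 averaged 38.4% and those at position 3 averaged 44.5%. The order was the same in brain, at 69.8%, 58.9% and 62.9%. Template-strand cytosines, classed by the coding-strand cytosine of their CpG, were also lowest at position 2 (37.6% in sperm). The cytosines numbered 5871, 4392 and 7232 in sperm.

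Gene families stood at different levels in sperm. The lists were picked by gene symbol, and the counts describe them without a test. Developmental transcription factors (Hox, Pax, Sox, Lhx and the like) had 58 of 70 regions below 20% in control WT F0 sperm and 57 of 92 in control WT brain, where all coding exon regions had 1582 of 4881 and 574 of 7272. Lhx5, a homeobox regulator of forebrain development, was among the emptiest, at 0.129% ± 0.172 (n = 10) in sperm and 0.833% in brain. Sox6 stood at the other end of the family, at 97.9% in sperm and 95.8% in brain.

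Synaptic adhesion and scaffold genes were mostly low in sperm. Of their regions, 27 of 41 were below 20% in sperm (65.9%, beside 32.4% of all coding exon regions) and 6 of 50 in brain (12%, beside 7.89%), and 26 of the 50 were above 80% in brain, beside 63.1% of all coding exon regions. Ntng2, the gene of a netrin-G that sits on axons, read 0 in all 8 sperm libraries with a value and 48.6% in brain. Other lists were divided in sperm, as were all coding exon regions (32.4% below 20% and 58.5% above 80%). Adhesion GPCRs and atypical cadherins had 18 of 44 regions (40.9%) below 20% and 23 above 80% in sperm, with 0 of 58 below 20% in brain. Zinc finger genes had 75 of 176 (42.6%) below 20% and 85 above 80% in sperm, with 12 of 220 below 20% in brain. Ion channels had 48 regions (47.5% of those tested) below 20% and 45 above 80% in sperm, with 18 (13.4%) below 20% in brain, a larger share than the 7.89% of all coding exon regions. Glutamate and GABA receptors had 15 of 35 (42.9%) below 20% and 19 above 80% in sperm, with 5 of 40 (12.5%) below 20% in brain. These shares were not tested.

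Other lists had most of their regions above 80% in both tissues, as had all coding exon regions, with 2855 of 4881 (58.5%) in sperm and 4585 of 7272 (63.1%) in brain. Dyneins and myosins had 76 of 106 regions above 80% in sperm and 97 of 146 in brain, and collagens had 22 of 32 and 50 of 63. Col8a1, a short-chain collagen gene, was an exception at 1.36% in sperm and 92.6% in brain. The DNA methylation machinery had 5 of 6 regions above 80% in sperm and 10 of 11 in brain, and its lowest region, in Tet1, which oxidizes methylcytosine, ranged from 42.9% to 100% over 9 sperm libraries. Germ cell and meiosis genes had 7 of 8 regions above 80% in sperm, with Acr, the gene of the acrosomal protease acrosin, lowest at 58.8% ± 7.35 (n = 10). Semaphorins and plexins had 12 of 18 and keratins 4 of 6 above 80%, whereas clustered protocadherins had 5 of 6 below 20%. Chemosensory receptors had 2 tested regions, with Vmn2r15 at 47.6% and Tas1r2 at 2.20%.

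Genes of the NRF2 pathway had 43 regions in 16 genes, of which 8 were tested in F0 sperm. Slc7a11, the cystine importer that feeds glutathione synthesis, averaged 1.94% ± 2.48 (n = 10) in control WT F0 sperm and 95.9% in control WT brain. Gclc, which catalyses the first step of glutathione synthesis, stood at 97.3% in sperm and 96.0% in brain. No region of this list passed the limma test in any comparison of smoke or genotype, where at most 0.402% of all regions passed. With 8 regions tested in F0 sperm and 12 in brain, none would be likely to pass at that share.

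Differences between control WT libraries were small where a region was full or empty. The median SD over the 10 sperm libraries was 1.76 points below 20%, 2.64 above 80% and 8.35 between. In brain it was 1.72, 3.02 and 6.88. The regions with the largest SD in sperm lay in Spata13, Agap1, Tnik, Rbm39 and Ikzf2, each with 3 or 4 cytosines and 4 to 6 libraries. Spata13 ranged from 7.69% to 93.8% over 5 libraries. In brain they lay in Ptx3, Ercc3, Cdc42ep4, Kcnk2 and Inava, and Ptx3 ranged from 18.1% to 97.1% over 7 libraries.

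The same 3333 coding exon regions could be set side by side in control WT F1 sperm and control WT F1 brain. They averaged 65.2% ± 2.08 in sperm (n = 6) and 77.0% ± 0.679 in brain (n = 8), and the library means did not overlap (62.5% to 67.4% and 75.9% to 78.1%). The 44471 other regions averaged 49.9% and 51.6%. limma, a linear model with moderated variances fitted over all regions with Benjamini-Hochberg adjustment, called 2276 coding exon regions at an adjusted p under 0.05. That is 68.3%, where 56.5% of all regions tested were called. Of these, 1401 were higher in brain and 875 lower (33.0% and 23.5% of all regions). When each library's mean deviation over all regions was first subtracted, 2625 were called, which is 78.8% of coding exon regions beside 81.6% of all regions. Of these 1084 (41.3%, against 61.6%) were higher in brain. Both the balance of directions and whether coding exon regions were called more often than all regions thus depended on that step.

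Large differences were mostly gains in brain. Among called coding exon regions, 523 were over 50 points higher in brain and 57 over 50 points lower, of 3333 tested, and 474 and 62 with centred libraries. Among other called regions 3591 were over 50 points higher and 1301 lower, of 44471. Of the 804 regions below 20% in sperm, 39.3% were above 80% in brain and 29.7% stayed below 20%. Among other regions below 20% in sperm, 9.23% were above 80% in brain and 76.8% stayed below. Among regions low in sperm with a CpG ratio up to 0.4, 48.7% of the 76 coding exon regions and 27.6% of the other regions were above 80% in brain. At a ratio of 0.4 to 0.6 it was 52.1% of 326 against 17%, at 0.6 to 0.8 it was 33.7% of 273 against 4.76%, and over 0.8 it was 13.2% of 129 against 0.862%. These shares were not tested. The F1 sperm libraries had higher imprinted promoter levels than F0 sperm (12.3% ± 4.51 in this group), and the part of that in these values was not tested. Sperm and brain were also prepared as separate sets of libraries, which cannot be told apart from the tissue.

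**Figure D2:**
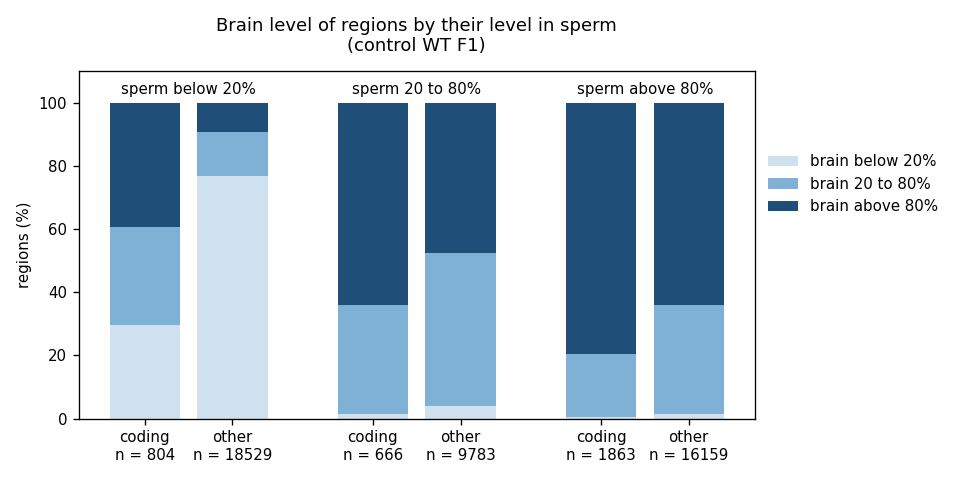
Stacked bars give the share of regions (y axis, percent) at each brain level for regions below 20%, at 20% to 80% and above 80% in sperm, with coding exon regions and other regions side by side and the number of regions under each bar (control WT F1). Of the coding exon regions below 20% in sperm, 39.3% were above 80% in brain, and of the other regions 9.23% were.

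The 8 regions that rose most in brain went from empty to full. Usp44, a deubiquitinase of the mitotic checkpoint, had sperm values of 0%, 0% and 1.25% (lowest, median, highest of 4 libraries) and brain values of 95.0%, 97.8% and 100% (n = 6). Rbm47, an RNA-binding protein that takes part in RNA editing, had 0%, 0.556% and 2.47% (n = 4) in sperm and 96.997%, 97.5% and 98.6% (n = 8) in brain. Arid5b, a DNA-binding transcriptional regulator, had 0.435%, 1.27% and 1.94% in sperm and 94.0%, 97.5% and 97.9% in brain. In all of these every brain library was above every sperm library. The Rbm47 difference was 96.8 points ± 1.63 (SE, limma adjusted p = 8.31e-15).

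Further regions of that end were Hhipl2, Ctu1, which modifies the wobble base of transfer RNA, Ston2, an endocytic adaptor, and Fndc1. Their sperm means ran from 0.174% (Fndc1) to 1.69% (Ston2) and their brain means from 95.7% (Fndc1) to 97.8% (Hhipl2). The regions named here lay from 2798 bp (Hhipl2) to 39550 bp (Arid5b) from a transcript start, and Usp44 and Rbm47 in the first coding exon.

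The 8 regions that fell most in brain were high in sperm. Kctd4 had 75.1%, 86.8% and 90.6% in sperm (n = 6) and 10.2%, 14.3% and 16.0% in brain (n = 8). Dpysl5, a collapsin response mediator that acts in growing neurites, had 73.6%, 77.4% and 85.6% in sperm and 4.51%, 7.49% and 9.67% in brain. Runx3, a transcription factor of sensory neurons and lymphocytes, had 70%, 81.4% and 86.7% in sperm (n = 4) and 3.23%, 10.98% and 16.1% in brain. No library of one tissue reached the range of the other. The Dpysl5 difference was -70.6 points ± 2.02 (limma adjusted p = 8.31e-14), over 9 cytosines in the last coding exon.

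The remaining 5 were full in sperm and partly methylated in brain. Chd9, a chromatin remodeler, went from 96.6% to 29.8%, Arhgap23 from 97.6% to 33.0%, and the netrin gene Ntn4 from 97.9% to 37.6%. Dennd2a, a regulator of Rab GTPases, went from 98.3% to 40.04% and D16Ertd472e from 98.98% to 41.4%. Brain libraries spread widely in the last of these, from 25% to 83.5%, and narrowly in Chd9, from 24.6% to 33.1%.

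No coding exon region of F0 sperm was called for smoke in WT males. limma called 0 of 4881 regions between smoked WT and control WT (0.00119% of all 84065 regions were called). At an unadjusted p under 0.05 there were 214 coding exon regions, or 4.38%, beside 4.22% of all regions. The mean difference was -0.548 points, against -0.473 over all regions, and the library means of the groups overlapped (57.9% to 62.6% and 59.9% to 65.1%). The smallest p belonged to Zbtb1, a transcriptional repressor needed for lymphocyte development. It had 96.9%, 98.0% and 99.6% in control WT and 86.5%, 93.8% and 98.1% in smoked WT, and the groups overlapped. The difference was -6.02 points ± 1.56 (adjusted p = 1).

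A rule of size, adapted from the study's methods but without their length limit of 50 bp, needs at least 33.3% of the cytosines to differ by over 5 points and a mean difference over 5 points. It was met by 281 coding exon regions in smoked WT, 70 higher and 211 lower (5.76%, against 5.59% of all regions, 1.52% higher and 4.07% lower). It involves no test. Of these 281, 38.4% had a control level of 20% to 80%, where 9.10% of all tested coding exon regions did, and 71 also had an unadjusted p under 0.05. The recovery groups met it at 307, 243 and 342 regions (6.27%, 5.07% and 7.21% of all regions met it). The counts were near the background in each case, and lower regions led in smoked WT as they did over all regions.

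The recovery groups were likewise near control WT, with a single region called in recovery 1 and in recovery 3. limma called 1 coding exon region in recovery 1 (0.00357% of all regions), 0 in recovery 2 (0.00238%, with 221 coding exon regions, and 4.32% of all regions, at an unadjusted p under 0.05) and 1 in recovery 3 (0.0274%). All 3 groups share the control WT libraries with the smoke comparison. By the study's methods those control males were collected soon after the exposure period and the recovery males later. Recovery males were thus older than their controls, and time since smoke cannot be told apart from age.

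Dnah6, an axonemal dynein heavy chain of motile cilia and sperm tails, was the region called in recovery 3. It lay in coding exon 60 of 76 (chr6:73060183-73060283). Control WT libraries had 85.2%, 90.8% and 92.3% (lowest, median, highest), smoked WT 86.1%, 90.02% and 91.2%, and recovery 1 had 86.7%, 89.3% and 92.5%. Recovery 2 had 82.1%, 84.9% and 89.1%, and recovery 3 had 76.4%, 82.5% and 85.9%, so that recovery 3 overlapped control WT only at its upper end. The difference was -7.24 points ± 0.961 in recovery 3 (adjusted p = 1.03e-05) and -4.71 points ± 0.961 in recovery 2 (adjusted p = 0.142). All 4 cytosines were lower in recovery 3, from 93.2% to 86.2% at the first and from 80.4% to 70.5% at the third. The call held without any single library, and was lost when the 2 groups were fitted alone (adjusted p = 0.131). Control and smoked Nrf2-/- sperm stood at 86.6% and 87.6%, and the F1 brain groups at 89.3% to 90.3%. In F1 sperm, sons of control WT sires averaged 83.0% ± 5.09 (n = 6) and sons of smoked WT sires 85.7% ± 5.16 (n = 7), so sons of unexposed sires stood about as low as recovery 3.

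Snd1, an RNA-binding nuclease, was the region called in recovery 1. The 4 recovery 1 libraries with a value had 76.7% to 91.7% and the 8 control WT libraries 91.7% to 100%, so the ranges met at their ends. The difference was -13.0 points ± 2.27 (adjusted p = 0.0395). Leaving out 1 library at a time kept the call in 8 of 19 fits, and the adjusted p reached 0.439 without recovery 1 column 2. It was also lost with the groups fitted alone, on the logit scale, with regions joined up to 300 bp, with strands averaged and with runs of facility numbers as a block (adjusted p = 0.0602). Smoked WT averaged 96.3% and recovery 2 and 3 averaged 96.9% and 97.3%.

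The Nrf2-/- groups had more calls against control WT than the smoked WT and recovery groups had. Between control Nrf2-/- and control WT F0 sperm limma called 16 of 4881 coding exon regions, 8 higher and 8 lower. That is 0.328%, and 0.402% of all regions were called, 0.117% higher and 0.285% lower. Between smoked Nrf2-/- and control WT it called 14, 7 higher and 7 lower (0.287%, and 0.32% of all regions, 0.124% higher and 0.196% lower). The shares of coding exon regions in this fit were thus near those of all regions. On the logit scale the calls in control and smoked Nrf2-/- were 14 (5 higher and 9 lower) and 8 (3 higher and 5 lower). With centred libraries they were 15 (7 higher and 8 lower) and 16 (9 higher and 7 lower), so the balance of directions moved with the setting. The Nrf2-/- F0 libraries carried facility numbers 1 to 20 and the WT libraries 21 to 70, so genotype and the order of library numbers cannot be told apart. The pair of comparisons share the control WT libraries. The mean over all coding exon regions was 62.2% ± 0.816 in control Nrf2-/- and 61.9% ± 1.15 in smoked Nrf2-/-, beside 61.7% ± 1.44.

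A single cytosine carried the call in Pde11a, a phosphodiesterase of cyclic nucleotides. The region (chr2:76158301-76158354, coding exon 6 of 20) had 89.8%, 97.4% and 99.7% in control WT, 76.1%, 76.9% and 78.9% in control Nrf2-/- and 72.6%, 77.5% and 78.2% in smoked Nrf2-/-. Neither Nrf2-/- group overlapped control WT. The differences were -19.7 points ± 0.829 (adjusted p = 4.97e-29) and -20.2 points ± 0.851 (adjusted p = 5.69e-29).

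The cytosine at position 76158301 of chromosome 2 read 0 in all 10 control Nrf2-/- and all 9 smoked Nrf2-/- sperm libraries. In the WT F0 groups it had 78.3% to 100%, with a control WT mean of 95.3% ± 3.94 (n = 10). The other 4 cytosines of the region differed by a median of -0.303 points. In brain the same cytosine read 76.7% ± 5.20 in sons of control WT sires, 0 in all 8 sons of control Nrf2-/- sires and 0 in 6 of 8 sons of smoked Nrf2-/- sires, with at most 1.67% in the others. The region lay 0.454 Mb from the coding sequence of Nfe2l2. A bisulfite reading of 0 cannot tell an unmethylated cytosine apart from a thymine in the DNA. The sons also carry a CAST/EiJ maternal copy, and the readings do not show how much came from either copy. The state of each copy in brain was therefore not tested.

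Itprid2, whose product binds actin and the inositol trisphosphate receptor, showed a like pattern 3.94 Mb from Nfe2l2. The cytosine at 79644802 on chromosome 2 had 77.8% to 100% in control WT sperm (n = 8). Among control Nrf2-/- libraries with a value 5 of 8 read 0 and among smoked Nrf2-/- libraries 2 of 6, and the highest in both groups was 100%. Nrf2-/- sperm libraries therefore ran from empty to full at this cytosine, where no WT F0 library was below 66.7%. The region was not called in F0 sperm, and its values were 93.9% ± 7.19 in control WT and 83.1% ± 10.1 in control Nrf2-/-.

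In brain the Itprid2 cytosine was read in fewer libraries and separated the sires' genotypes. It had 85.7% to 100% in 6 sons of control WT sires, 0 in 5 of 5 sons of control Nrf2-/- sires and 0 in 5 of 6 sons of smoked Nrf2-/- sires, with 14.3% in the remaining one. Here too the readings do not show how much came from the maternal copy. The region was called in both brain comparisons, with -20.1 points ± 2.85 (adjusted p = 0.00500) and -19.7 points ± 2.71 (adjusted p = 0.00402), and both calls were lost when the strands of a CpG were averaged, when regions were joined up to 300 bp or when the lone cytosine was left out. The second was also lost with the groups fitted alone. In both genes the coding-strand cytosine of this CpG stood at codon position 3. In Itprid2 that was the scored cytosine, whereas in Pde11a the scored cytosine was on the template strand.

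Cytosines that departed by over 50 points from the median difference of their own region were counted over all regions. There were 66 between control Nrf2-/- and control WT F0 sperm, 25 on chromosome 2, 14 on chromosome 6, 7 on chromosome 11 and 15 on chromosome 13, and 2 of the 66 were in coding exon regions. There were 0 between control WT and smoked WT, recovery 1 or recovery 2, and 3 in recovery 3. In brain the control Nrf2-/- comparison held 21, with 2 in coding exon regions, and the smoked Nrf2-/- comparison 11, with 3. The added one was in Syt13, a synaptotagmin, 17.2 Mb from Nfe2l2. It fell from 77.9% to 17.9%, and the region was not called.

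**Figure D3:**
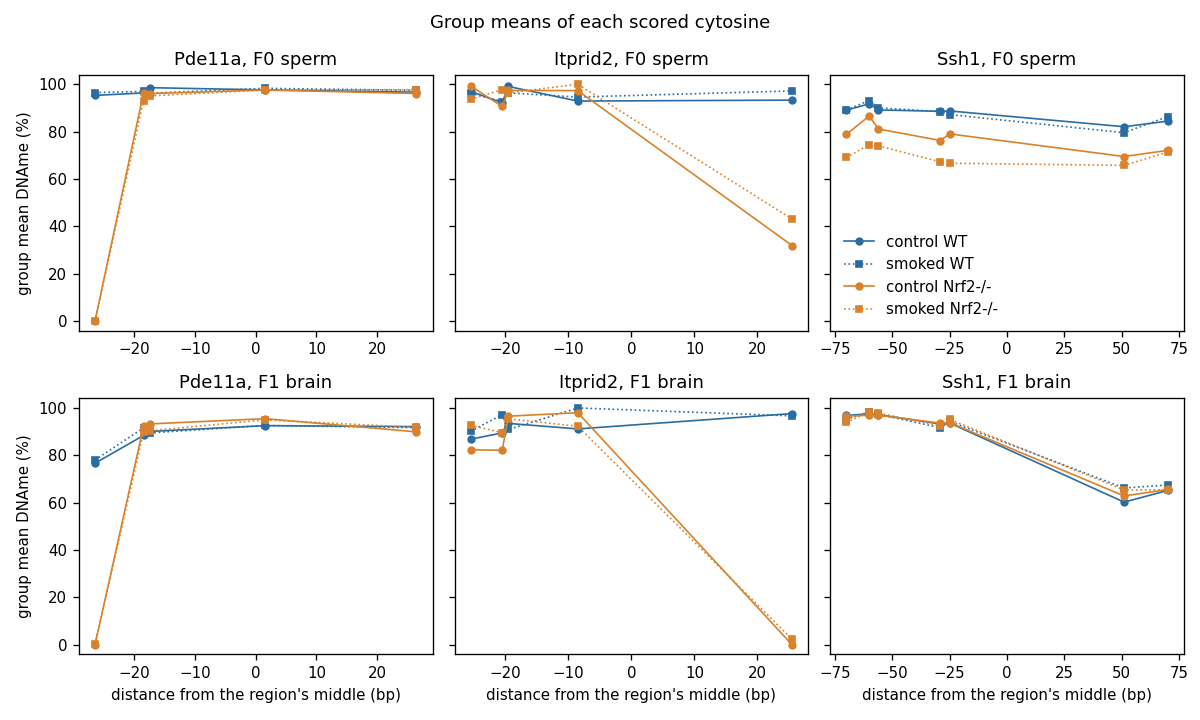
Group mean DNAme (y axis, percent) of each scored cytosine by distance from the middle of its region (x axis, bp) for Pde11a, Itprid2 and Ssh1 in F0 sperm (top) and F1 brain (bottom), with WT groups in blue, Nrf2-/- groups in orange, control solid and smoked dotted. In Pde11a and Itprid2 a single cytosine departed, to 0% in Pde11a sperm, whereas in Ssh1 all 7 cytosines were lower in Nrf2-/- sperm, and the brain groups lay close together with region means of 86.3% to 87.2%.

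Ssh1, a phosphatase that activates the actin-severing protein cofilin, was lower in Nrf2-/- sperm over its whole region. The 7 cytosines lay in the last coding exon, 15 of 15 (chr5:113942517-113942657). Control WT had 81.9%, 88.7% and 92.4%, control Nrf2-/- had 72.3%, 76.6% and 83.8%, and smoked Nrf2-/- had 58.9%, 69.8% and 79.99%. The smoked Nrf2-/- libraries did not overlap control WT, and control Nrf2-/- overlapped it narrowly. The differences were -10.1 points ± 1.65 (adjusted p = 9.19e-05) and -17.9 points ± 1.70 (adjusted p = 5.67e-12), and they passed in every alternative run. The other WT groups averaged 87.7% to 89.2%. Sons of the 4 kinds of sire had 86.3% to 87.2% in brain.

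Osbpl3, an oxysterol-binding protein relative that moves lipids between membranes, had the largest difference. The region lay in coding exon 14 of 22 (chr6:50323081-50323163). Control WT had 69.2%, 84.7% and 90.95% (n = 8), control Nrf2-/- had 5%, 23.2% and 65.5% (n = 9), and smoked Nrf2-/- had 14.3%, 33.1% and 55.8% (n = 8). No library of either Nrf2-/- group reached the control WT range, although the lowest smoked WT library (55.2%) and recovery 3 library (47.8%) fell within the Nrf2-/- range. The differences were -54.6 points ± 6.08 (adjusted p = 6.13e-09) and -49.6 points ± 6.25 (adjusted p = 2.34e-07), and all 5 cytosines took part, from 76.1% to 88.2% in control WT and from 17.1% to 38.5% in control Nrf2-/-. In brain all groups averaged 53.0% to 57.8%, with 86.1% and 86.2% at the paired cytosines of the second CpG and 31.4% to 32.8% at the other 3 in sons of control WT sires. Control WT F0 sperm was thus near uniform along a region that brain of the F1 sons held in a split state. Tissue cannot be told apart here from generation and from the sons' CAST/EiJ mother.

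Gm11639, a predicted gene whose last coding exon here is shared with Efcab3, spread widely in Nrf2-/- sperm (chr11:105117117-105117387). Control WT had 60.6%, 72.3% and 84.2% (n = 9), control Nrf2-/- had 7.43%, 25.7% and 75.2% (n = 10), and smoked Nrf2-/- had 5.40%, 28.9% and 46.9% (n = 8). Control Nrf2-/- overlapped control WT with its highest libraries and smoked Nrf2-/- did not. The differences were -38.3 points ± 6.999 (adjusted p = 0.000823) and -43.4 points ± 7.40 (adjusted p = 0.000252). The control Nrf2-/- call was lost with the groups fitted alone (adjusted p = 0.123). Brain groups averaged 65.9% to 78.1% over the 4 cytosines scored there.

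A pair of further regions on chromosome 2 moved in opposite directions. Pla2r1, the phospholipase A2 receptor, had 14.9%, 21.1% and 34.9% in control WT, 0%, 2.98% and 9.64% in control Nrf2-/- and 0%, 3.90% and 7.97% in smoked Nrf2-/-, with no overlap (adjusted p = 4.77e-07 and 5.91e-06). It lay 15.2 Mb from Nfe2l2, and in brain it averaged 22.3% to 33.1%. In F1 sperm, sons of control WT sires had 9.54% ± 1.23 (n = 4, 7.84% to 10.7%), below every control WT F0 library, with their lowest library inside the control Nrf2-/- range, and sons of smoked WT sires had 16.7% ± 3.85 (n = 5). The lowest recovery 1 library had 6.32%, so WT sperm overlapped the Nrf2-/- range. Fign, a microtubule-severing ATPase 11.7 Mb away on the same side, had 0%, 4.99% and 19.7% in control WT and 9.77%, 22.2% and 71.9% in smoked Nrf2-/-, with overlap. The Fign difference was 19.8 points ± 3.83 (adjusted p = 0.00217). It kept its call without any single library and lost it with the groups fitted alone (adjusted p = 0.456). In control Nrf2-/- the Fign difference was 9.64 points and was not called (adjusted p = 0.411). Fign averaged 95.6% to 97.4% in the brain groups and 1.72% and 3.31% in the F1 sperm groups. Over chromosome 2 as a whole, 2 of 418 tested coding exon regions were called between control Nrf2-/- and control WT, and 14 of 4463 on the other autosomes.

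Neurod4, a transcription factor of neuronal differentiation, had a small difference between control Nrf2-/- and control WT. The values were 84.5%, 85.6% and 89.2% in control WT and 73.9%, 80.9% and 85.1% in control Nrf2-/-, which overlapped, with -5.28 points ± 0.946 (adjusted p = 0.000501). With the groups fitted alone it did not pass (adjusted p = 0.0869). The smoked WT and smoked Nrf2-/- groups averaged 82.95% and 82.4%, also below control WT, and neither difference was called. The other 10 calls of that comparison were Evpl, Mapt, Dusp8, Srsf12, Rasip1, Cbarp, Cic, Clip1, Zfp629 and Lrfn3. They fell outside the rule for naming and are given because the count is small, after their values were seen. Differences ran from 16.4 points higher in Srsf12 to 17.9 points lower in Mapt, the gene of the neuronal protein tau, which went from 27.8% ± 11.2 to 9.96% ± 8.11. Lrfn3, Zfp629, Clip1, Cbarp and Cic kept the call in 4, 11, 12, 16 and 17 of 20 leave-one-out fits. Their highest adjusted p was 0.138 without control Nrf2-/- column 6 (Lrfn3), 0.0894 without control WT column 7 (Zfp629), 0.0815 without control WT column 6 (Clip1), 0.0773 without control Nrf2-/- column 8 (Cbarp) and 0.0875 without control WT column 2 (Cic). The remaining 5 kept it in every such fit, but each of the 10 lost it under some other setting, Evpl with regions joined up to 300 bp and on the logit scale and the other 9 with the groups fitted alone.

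**Figure D4:**
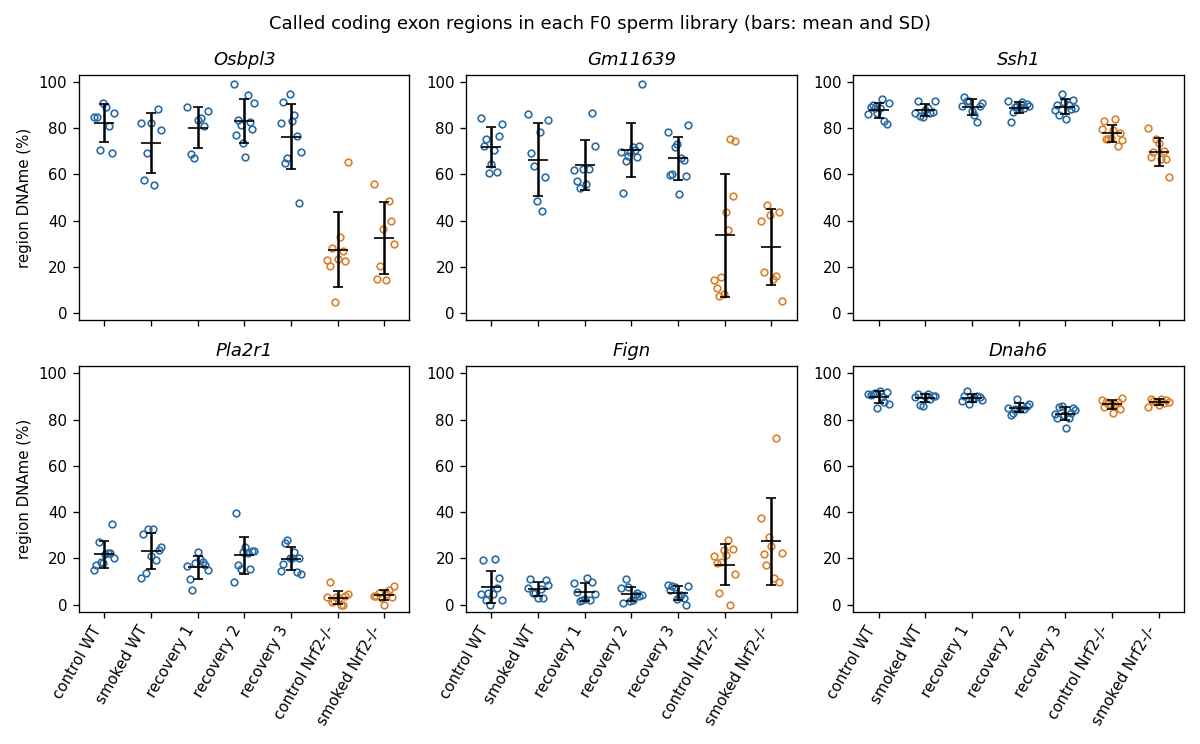
Region DNAme (y axis, percent) in each F0 sperm library of the 7 groups (x axis), with WT groups in blue and Nrf2-/- groups in orange and black bars for the mean and SD. Both Nrf2-/- groups sat below every control WT library in Osbpl3 and Pla2r1, and Dnah6 was lowest in recovery 3, at a mean of 82.6%.

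Between smoked Nrf2-/- and control WT the calls outside the rule were Camk2a, Lmo7, Atp7b, Erc2, Ptpn20, a second Evpl region, Ntf5 and Nhsl1, with differences from -18.5 points (Atp7b) to 12.4 points (Lmo7), again named after their values were seen. All 8 lost the call with the groups fitted alone. Camk2a and Lmo7 kept it in every leave-one-out fit. Without a single smoked Nrf2-/- library the adjusted p reached 0.115 in Atp7b (column 8), 0.0847 in Erc2 (column 1), 0.269 in Ptpn20 (column 5), 0.162 in Evpl (column 7), 0.168 in Ntf5 (column 6) and 0.166 in Nhsl1 (column 7). Atp7b, a copper-transporting ATPase, was also the 1 coding exon region called between smoked and control Nrf2-/- (0.00595% of all regions). Control Nrf2-/- had 95%, 98.8% and 100% (n = 10) and smoked Nrf2-/- had 50%, 74.7% and 98.5% (n = 6), with overlap at the top. The difference was -21.6 points ± 3.78 (adjusted p = 0.0202), 16 of 19 leave-one-out fits kept the call, and the adjusted p was 0.131 without smoked Nrf2-/- column 9. That call was lost with the groups fitted alone, on the logit scale, with strands averaged and with runs of facility numbers as a block (adjusted p = 0.112). The change under smoke in Nrf2-/- less that in WT was -23.3 points ± 5.28 in Atp7b and did not pass (adjusted p = 0.577). limma called 0 coding exon regions for that difference of changes (0.0% of all regions), with 234 at an unadjusted p under 0.05 (4.34% of all regions).

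The size rule was met by 400 coding exon regions in control Nrf2-/-, 283 higher and 117 lower, where 8.65% of all regions met it, 4.28% higher and 4.37% lower. In that comparison the coding exon regions that met it were mostly higher, whereas all regions were evenly divided. The mean difference was 0.554 points over coding exon regions and 0.0134 points over all regions. Of the 400, 159 also had an unadjusted p under 0.05 and 12 were called. In smoked Nrf2-/- the rule was met by 434 regions, 247 higher and 187 lower, a weaker lean, beside 8.15% of all regions (3.22% higher and 4.93% lower). The mean difference there was 0.152 points over coding exon regions and -0.302 over all regions. Between the Nrf2-/- groups 360 met it (7.2% of all regions).

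In F1 sperm the libraries were few and sparse. limma called 0 of 3670 coding exon regions between sons of smoked WT and control WT sires (0.0% of all 53897 regions), and 203 had an unadjusted p under 0.05 (5.66% of all regions). The group means were 61.8% ± 2.42 and 63.7% ± 1.49, with overlapping libraries (58.4% to 64.6% and 61.7% to 65.3%). The size rule was met by 690 regions, 557 higher and 133 lower, or 18.8%, beside 16.9% of all regions, 14% higher and 2.83% lower. The smallest p was in Mtif3, a mitochondrial translation initiation factor, with 33.3%, 50% and 54.5% in sons of control sires and 73.8%, 78.8% and 100% in sons of smoked sires (n = 5 each). Those libraries did not overlap, and the difference of 36.6 points ± 6.08 did not pass (adjusted p = 0.684).

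In brain, too, paternal smoke in WT sires gave no call in a coding exon. limma called 0 of 7272 regions (0.00182% of all 109756 regions), with 370 at an unadjusted p under 0.05 (4.4% of all regions). The means were 75.1% ± 1.06 and 75.6% ± 2.89, and the medians over libraries were 75.2% and 76.5%. Smoked WT column 8 was low at 68.9%, where the other libraries of that group had 75.3% to 78.1%. The smallest p was in Wwp2, a ubiquitin ligase, with 56.8%, 60.5% and 73.1% in sons of control WT sires and 65.8%, 77.1% and 89.3% in sons of smoked WT sires, which overlapped (15.6 points ± 3.53, adjusted p = 0.783). The size rule was met by 798 regions, 651 higher and 147 lower (10.97%, beside 10.6% of all regions, 8.15% higher and 2.43% lower), and 70.8% of them had a control level of 20% to 80%, where 29.1% of all coding exon regions did.

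A few brain libraries stood below the rest and bear on every brain comparison with a smoked group. Smoked WT column 8 averaged 68.9% over coding exon regions, and smoked Nrf2-/- columns 2, 4, 5 and 6 averaged 69.0%, 70.4%, 71.7% and 72.7%. The other 27 libraries spanned 73.2% to 78.1%. The 5 low libraries also had a value at the fewest coding exon regions, 5008 to 6667, where the others had 6772 to 7185. Each mean is over the regions that its library read, which are not the same set. The 5 were chosen after these levels were seen, so leaving them out had to raise the means of their groups. It also takes columns 2, 4, 5 and 6 out of 8 smoked Nrf2-/- libraries, and fewer libraries alone can lose calls. The same 5 libraries had 17.6% to 24.7% at the imprinted promoters, where the others had 26.7% to 37.7%. All other regions were low in these 5 libraries too, at 46.5% to 50.5%, where the others had 51.0% to 55.2%. The low level was thus not particular to imprinted promoters and coding exons. Its part in the differences was not tested beyond leaving the libraries out.

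**Figure D5:**
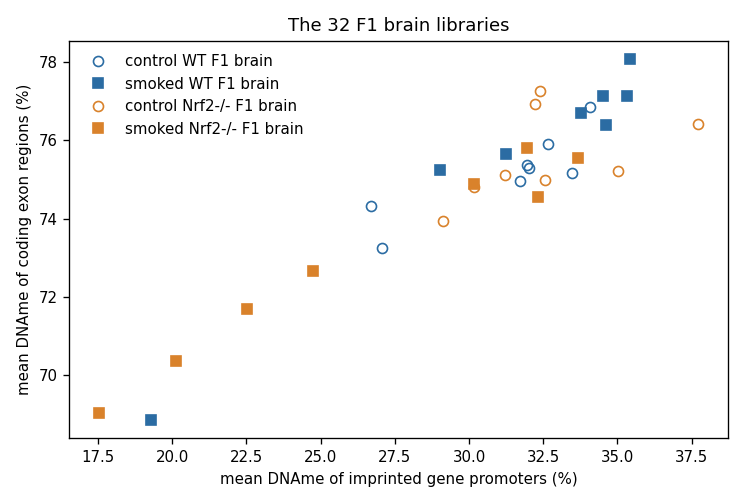
Mean DNAme of coding exon regions (y axis, percent) against that of imprinted gene promoters (x axis, percent) for each of the 32 F1 brain libraries, with sons of WT sires in blue, of Nrf2-/- sires in orange, control open and smoked filled. A smoked WT library and 4 smoked Nrf2-/- libraries lie at the lower left, with imprinted promoters at 17.6% to 24.7%.

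Sons of Nrf2-/- sires had few calls in coding exons of the brain. Brain libraries from Nrf2-/- sires carried facility numbers 1 to 16 and those from WT sires 17 to 32, so the sire's genotype and the order of library numbers cannot be told apart here either. Sons of control Nrf2-/- sires had 2, in Pde11a and Itprid2 (0.0164% of all regions were called), and sons of smoked Nrf2-/- sires had 4, in the same genes and in Gli2 and Psap (0.021%). Pde11a differed by -13.8 points ± 1.41 (adjusted p = 1.67e-06) and -14.5 points ± 1.41 (adjusted p = 3.95e-07). Between sons of smoked and of control Nrf2-/- sires limma called 0 (0.0% of all regions), with 801 coding exon regions at an unadjusted p under 0.05, or 11.01%, beside 9.13% of all regions. It also called 0 for the difference between the smoke changes of the genotypes, with 795 at an unadjusted p under 0.05 (9.09% of all regions). Without the 5 low libraries, and so with fewer libraries in the smoked groups, these counts were 367 (5.157%, beside 4.7% of all regions) and 536 (7.531%, beside 6.896%). With centred libraries they were 1120 (15.4%, beside 22.29%) and 1016 (13.97%, beside 21.42%), so the share of coding exon regions then lay below that of all regions. Without the 5 low libraries the calls against control WT in sons of smoked Nrf2-/- sires were 2, and the Itprid2 region could not be fitted.

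Psap encodes prosaposin, the precursor of lysosomal activators of sphingolipid breakdown. Sons of control WT sires had 61.6%, 72.4% and 85.7%, those of smoked WT sires averaged 69.6%, those of control Nrf2-/- sires had 41.7%, 66.1% and 91.9%, and those of smoked Nrf2-/- sires had 29.0%, 39.8% and 61.5% (n = 7). The last group overlapped none of the control WT libraries. The difference was -31.1 points ± 5.32 (adjusted p = 0.0219), and 9 of 16 leave-one-out fits kept it, with an adjusted p of 0.0599 without control WT column 6. Without the 5 low libraries, which leaves fewer sons of smoked Nrf2-/- sires, it was -25.01 points and no longer passed. The call was also lost on the logit scale and when 6 libraries per group were needed.

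Gli2, a transcription factor of Hedgehog signalling, had 94.1%, 96.0% and 100% in sons of control WT sires and 85.6%, 89% and 90% in the 5 sons of smoked Nrf2-/- sires with a value. These did not overlap (-8.20 points ± 1.32, adjusted p = 0.0112), and without smoked Nrf2-/- column 3 the adjusted p was 0.0646. The Gli2 call was also lost with the groups fitted alone, on the logit scale and with centred libraries. Zfp169, a zinc finger gene, had the smallest p between sons of smoked and control Nrf2-/- sires, with 66.4%, 73.8% and 77.7% against 79.7%, 82.5% and 86.8%. The difference of -9.70 points did not pass (limma adjusted p = 0.0891), although no libraries overlapped. It passed in 3 of 12 alternatives, among them runs of facility numbers as a block (adjusted p = 0.0235), and the adjusted p reached 0.713 in another. Without the 5 low libraries it was -6.35 points and did not pass. The same region read 1.42% to 2.73% in the F0 sperm groups.

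Leaving out the low libraries, which had been chosen for their low levels, was bound to raise the means of their groups. The size rule in sons of smoked Nrf2-/- sires changed in that direction. It was met by 1181 coding exon regions against control WT, 178 higher and 1003 lower (16.2%, beside 15% of all regions, 2.56% higher and 12.5% lower), and by 1378 against control Nrf2-/-, 174 higher and 1204 lower (18.9%, beside 17.3%, 2.13% higher and 15.2% lower). Without the 5 libraries it was met by 884, 452 higher and 432 lower (12.2%, beside 12.4% of all regions), and by 1005, 378 higher and 627 lower (13.8%, beside 13.6%). In sons of smoked WT sires it then went from 798 to 968, with 845 higher (13.3%, beside 12.9%). Sons of control Nrf2-/- sires met it at 726 regions (10% of all regions did, 6.68% higher and 3.35% lower), 476 higher and 250 lower, with none of these libraries involved.

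Regions called in F0 sperm were read in the brain of sons where they were tested. Osbpl3, Ssh1, Pla2r1, Neurod4, Fign and Mapt were not called in brain in either comparison with an Nrf2-/- sire. Mapt, for example, averaged 22.8% in sons of control WT sires, 32.8% in sons of control Nrf2-/- sires and 30.6% in sons of smoked Nrf2-/- sires. Pde11a was the exception, through the cytosine that read 0. Sperm of the sons of Nrf2-/- sires was not analysed here.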

How the data were processed

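Per the submitters' processing notes and the study's methods, the authors aligned RRBS reads to mm10 with Bismark. The deposited tables give the percent of reads that stayed methylated at each CpG cytosine, with 1 column per library. The methods scored CpGs covered by more than 8 reads in at least 4 replicates, but whether single readings below that coverage were removed from the tables, and which release of Bismark was run, is not given in the sources used here. Without read counts the depth is unknown, and no interval for counting error could be made. Nothing says that the libraries of a group came from separate matings, and p-values measure the spread between libraries. Libraries are named by group and by column order in the group's table, which does not show which sample a column is. A control WT F1 brain sample carries an Nrf2-/- strain label and a WT title, and was placed by its title.

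Region values were means of the cytosines read, corrected for each cytosine's mean level, with at least 50% of cytosines needed. Groups were compared with limma 3.58.1 in R 4.3.3 (group means, variance trend, two-sided, Benjamini-Hochberg adjusted over coding and other regions together), and the fit was tested on simulated data. Coding sequence and transcript starts came from the GENCODE vM21 annotation of GRCm38 (mm10) and sequence from the RefSeq copy of that assembly, and Python 3.11.15, numpy 2.4.6 and pandas 2.3.3 did the rest. The members and gene lists were chosen with earlier results of these data known.

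Named regions were Nfe2l2, up to 6 called regions of smallest p with a difference over 5 points per comparison (or the 1 of smallest p where none was called), the 8 largest brain against sperm differences each way (1 per gene, 5 or more cytosines), the highest and lowest region of each gene list, and the 5 regions of largest SD in each control WT tissue. A region that the rule picked between brain and sperm is not reported here. Alternatives were the groups fitted alone, no variance trend, a logit scale, joining up to 300 bp, CpG strands averaged, 6 libraries per group, 5 kb from transcript starts, regions over 50 bp built per tissue, a 10-point size rule, cytosines read in every library, and each library left out. Centring libraries, leaving out lone cytosines, leaving out 5 low brain libraries and runs of facility numbers as a block were added after seeing the data.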

Additional observations from a re-analysis of the deposited data

Results flagged for a closer look

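Single libraries lay far from the rest of their group, by Dixon's ratio of gap to range, in 10 of the 57 sets of libraries examined. Chance gives about 1 in 20 for independent normal values. Percents are bounded and the sets share libraries, so the count cannot be judged against that rate. In the mean over coding exon regions these were control WT F0 sperm column 9 at 65.1% (next library 62.6%), smoked WT F0 sperm column 4 at 57.9% (60.2%), control Nrf2-/- F0 sperm column 6 at 64.3% (62.5%) and smoked WT F1 brain column 8 at 68.9% (75.3%). The brain library also had low imprinted promoters, at 19.3%.

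In Pde11a, control WT F0 sperm column 6 was lowest at 89.8% (95.9%), smoked Nrf2-/- F0 sperm column 1 lowest at 72.6% (75.9%) and control WT F1 brain column 8 highest at 93.4% (88.8%). Osbpl3 stood at 65.5% in control Nrf2-/- F0 sperm column 10 (32.9%), Pla2r1 at 9.64% in control Nrf2-/- column 2 (4.55%) and Fign at 71.9% in smoked Nrf2-/- column 7 (37.4%). The Pde11a, Osbpl3, Pla2r1 and Fign calls held in each fit with 1 library left out, although Pde11a was lost without its lone cytosine and Fign with the groups fitted alone. The cause of these outlying values was not tested.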

How the results depend on the processing

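Depth is unknown, and regions with few readings per cytosine cannot be picked out. No paired analysis was possible because the columns carry no replicate number. Their facility library numbers are not tied to the replicate numbers, but smoked, control and recovery WT sperm libraries, and smoked and control brain libraries, recur in runs of 5 and of 4 numbers, and no source says what a run is. With these runs as a block (Nrf2-/- sperm also in runs of 5), the counts were 0 in recovery 1 and in smoked against control Nrf2-/- sperm and 1 between the Nrf2-/- brain groups, and kept their value in the other 6 comparisons that could be fitted. The genotypes share no run. The cause of the shifts below was not tested except where stated. With the groups fitted alone the counts of called coding exon regions were 0 in recovery 1, recovery 3 and smoked against control Nrf2-/- sperm, 5 and 6 in control and smoked Nrf2-/- sperm, and 2 in smoked Nrf2-/- brain. On the logit scale they were 0 in recovery 1 and smoked against control Nrf2-/- sperm, 8 in smoked Nrf2-/- sperm and 2 in smoked Nrf2-/- brain. Joining up to 300 bp gave 0 in recovery 1 and 1 in control Nrf2-/- brain and in smoked against control Nrf2-/- brain, as did no variance trend (1) in the last. Averaged strands gave 0 in recovery 1 and in smoked against control Nrf2-/- sperm and 1 in control Nrf2-/- brain. Needing 6 libraries gave 0 in recovery 1, 1 in each Nrf2-/- brain comparison with control WT and 768 between brain and sperm. Regions over 50 bp gave 0 in recovery 1 and in smoked against control Nrf2-/- sperm, 9 in smoked Nrf2-/- sperm and 1317 between brain and sperm, and the 5 kb limit gave 8 in control Nrf2-/- sperm. Fewer regions were tested under these last 3 settings.

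Leaving out lone cytosines gave 0 calls in control and 2 in smoked Nrf2-/- brain, and turned the Pde11a brain differences to 1.94 and 0.939 points and the smoked Nrf2-/- Itprid2 brain difference to 2.42 points. Without the 5 low libraries 2 calls were left in smoked Nrf2-/- brain. With each library left out, the counts ran 0 to 0 (smoked WT sperm), 0 to 2, 0 to 1 and 1 to 2 (recovery 1, 2 and 3), 13 to 18, 10 to 18 and 0 to 2 (control Nrf2-/-, smoked Nrf2-/- and the pair), 0 to 1 for the difference of smoke changes, 0 to 0 in F1 sperm, and in brain 0 to 0, 2 to 2, 3 to 7, 0 to 1 and 0 to 0 in the same order, with 2199 to 2317 between brain and sperm. No recovery 1 call was left without control WT columns 1, 3, 5, 7, 9 or 10 or recovery 1 columns 2, 3, 6 or 9. Without recovery 1 column 7 the count was 1 but Snd1 was not called. The count was 2 without control WT column 6 or recovery 1 columns 4 or 8. The call between the Nrf2-/- sperm groups was lost without smoked columns 3, 8 or 9, and a second was made without columns 1 or 4. Calls rose to 1 in recovery 2 without column 5 of either group, to 2 in recovery 3 without control WT column 8, to 1 for the difference of smoke changes without smoked Nrf2-/- sperm column 4, to 7 in smoked Nrf2-/- brain without its column 8, and to 1 between the Nrf2-/- brain groups without control columns 3 or 5 or smoked columns 7 or 8.

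At 10 points the size rule was met by 52 regions in smoked WT, 59, 50 and 88 in recovery, 102, 105 and 93 in the Nrf2-/- sperm comparisons, 204 in F1 sperm, and 168, 122, 315 and 455 in brain. The shares of coding exon regions were 1.02% to 2.15% in F0 sperm (0.898% to 2.37% of all regions), 5.56% in F1 sperm (4.45%) and 2.31%, 1.68%, 4.33% and 6.26% in brain (2.03%, 1.64%, 3.99% and 5.48%). Over 5 kb from transcript starts it was met by 197 and 216 in recovery 1 and 3, 247 in control Nrf2-/- sperm (6.1%, 6.69% and 7.65%, beside 6.26%, 7.21% and 8.63% of all regions), and 499, 449, 752 and 863 in brain (10.6%, 9.57%, 16% and 18.4%, beside 10.6%, 10%, 15.1% and 17.3%). Mean levels with the 5 kb limit were 64.4%, 63.7%, 64.2%, 63.8%, 64.0%, 64.9% and 64.6% in the F0 groups, 65.6% in smoked WT F1 sperm and 78.2%, 78.9%, 78.6% and 76.4% in brain. With cytosines read in every library they were 64.7%, 64.3%, 64.6%, 64.5%, 64.9%, 65.2% and 65.0% in F0 sperm, 65.5% in smoked WT F1 sperm and 71.6% and 72.2% in brain for control and smoked WT sires and 72.1% and 70.7% for control and smoked Nrf2-/- sires, so control WT and smoked Nrf2-/- brain stood closer than at 75.1% and 73.1%. Among named regions 25 of 43 differences no longer passed with the groups alone and 13 of 44 on the logit scale, with their direction kept. Both totals include Zbtb1, Dnah6 in recovery 2, Wwp2 and Zfp169, and the second also Mtif3, which had not passed in the main fit. The share of calls lost was therefore larger than these totals give.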

Other observations

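Between control WT F1 sperm and control WT F1 brain, 1401 coding exon regions were called higher in brain and 875 lower of 3333, and with each library centred 1084 and 1541, so directions in the gene lists are given with their values under centring below. Zinc finger genes had 72 higher and 14 lower of 117 regions tested in both tissues, and developmental transcription factors 23 and 4 of 36. Ion channels had 36 and 14 of 71, synaptic adhesion and scaffold genes 18 and 7 of 32, and adhesion GPCRs with atypical cadherins 18 and 4 of 30. Dyneins and myosins had 30 and 17 of 74, collagens 7 and 3 of 17, and glutamate and GABA receptors 8 and 4 of 19. Semaphorins and plexins had more lower than higher calls, 2 higher and 5 lower of 11. The smaller lists were NRF2 pathway genes with 4 and 1 of 6, germ cell genes with 4 and 0 of 7, DNA methylation machinery with 1 and 1 of 4, keratins with 1 and 1 of 3 and clustered protocadherins with 2 and 0 of 2.

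With each library centred, higher calls still led in zinc finger genes (59 higher and 36 lower), synaptic genes (18 and 11), adhesion GPCRs (16 and 6), NRF2 pathway genes (4 and 1), germ cell genes (4 and 2) and protocadherins (2 and 0), and narrowly in ion channels (29 and 26). They turned to mostly lower in developmental transcription factors (8 and 19), dyneins and myosins (20 and 31), collagens (4 and 9) and glutamate and GABA receptors (5 and 10). Semaphorins and plexins had 2 and 7, keratins 1 and 2 and DNA methylation machinery 1 and 2.

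Some list members were near 0% in control WT F0 sperm and partly methylated in control WT F1 brain. Myo5c, an unconventional myosin, averaged 0.402% and 29.6%, Sema6c, a transmembrane semaphorin, 0.357% and 45.02%, and Adgrb2, an adhesion GPCR, 0.258% and 25.4%. Kcnh5, a voltage-gated potassium channel, went the other way, from 98.97% to 63.9%. Krt88 was low in both, at 4.05% and 2.48%. Several were high in both, among them Zfp157 at 99.5% and 98.4%, Col4a2 at 99.1% and 95.6%, Fat1 at 98.2% and 95.2%, and Piwil1, which binds piRNAs in male germ cells, at 96.7% and 92.6%. These pairs differ in generation as well as tissue and were not tested.

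Upstream of H19, which is methylated on the paternal copy, group means were 92.4% to 95.7% in F0 sperm and 33.3% to 45.1% in brain. Between smoked and control Nrf2-/- F0 sperm, 1 cytosine departed from its region in Syde2 (69.8% in control and 17.9% in smoked) and in Lnx1 (59.1% and 31.2%, where the other cytosines were higher in smoked by a median of 24 points), chosen after their values were seen. The smallest p for a difference of smoke changes between brain groups was in Git2, at -35.4 points ± 6.91 (limma, adjusted p = 0.127), which did not pass.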
